A study of Homo sapiens with 9 samples.

Results

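The fetal gamma-globin genes HBG1 and HBG2 and the neighbouring non-coding RNA gene BGLT3 were followed through 9 RNA sequencing libraries. All came from K562, a human line of erythroleukaemia origin. They are 3 genes of 58347 in the count table, chosen by their Ensembl identifiers: ENSG00000213934 for HBG1, ENSG00000196565 for HBG2 and ENSG00000260629 for BGLT3. All 3 passed the filter on low counts that left 23675 genes for testing.

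Every group was the engineered line named K562-FIRE. These cells stably carry dCas9, a Cas9 that binds DNA at the site set by a guide RNA (sgRNA) but does not cut it. They also carry an MS2-Fkbp fusion with 1 Fkbp unit, and SS18-Frb, a fusion of SS18, a subunit of the BAF chromatin remodelling complex. The 3 parts are each driven by the EF1a promoter, and rapamycin joins Fkbp to Frb. The cells held either an sgRNA to the HBG1 promoter (HBG1 sgRNA) or a non-targeting sgRNA, and were treated for 24 h with 10 nM rapamycin or with DMSO, the solvent. There were 3 libraries of HBG1 sgRNA cells with DMSO, 3 of HBG1 sgRNA cells with rapamycin, 1 of non-targeting cells with DMSO and 2 of non-targeting cells with rapamycin. The question put by the design is whether bringing SS18 to the HBG1 promoter with rapamycin changes HBG1 expression. Whether the line is a clone or a pool is not given in the sources used here. Nor do they say whether replicates were separate cultures, so p-values measure only the spread between these samples, which may be technical.

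Fetal haemoglobin is built from alpha-globin chains and the gamma-globin chains that HBG1 and HBG2 encode. The beta-globin locus holds its genes in the order of their use in development, with embryonic epsilon-globin (HBE1) nearest the distant enhancer, then HBG2 and HBG1, then BGLT3, the pseudogene HBBP1, and adult delta-globin (HBD) and beta-globin (HBB). The genes share that enhancer, and repressors such as BCL11A and ZBTB7A silence gamma-globin in adult erythroid cells. K562 cells are known for embryonic and fetal rather than adult globin.

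The 3 genes lie side by side on the minus strand of chromosome 11 (GRCh38, GENCODE 29). BGLT3, a lincRNA of 1 exon and 993 bases, spans 5244554 to 5245546. HBG1 spans 5248079 to 5249859, and its main transcript has 779 bases. HBG2 is annotated from 5253190 to 5505605, but its main transcript, of 614 bases, covers only 5253190 to 5254811. The start sites of the HBG1 and HBG2 main transcripts are 4952 bases apart, and the start of BGLT3 is 4313 bases downstream of that of HBG1. The position and sequence of the sgRNA were not analysed here, and a match of it to the HBG2 promoter was not looked for.

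How far counts can tell the genes apart is set by their sequence, so the stretches that separate HBG1 from HBG2 are shown. Their coding sequences have 444 bases each with the stop codon, and are 99.5% identical, with 2 differences. Positions are counted from 1 at the A of the start codon, and each token gives the HBG1 base, the position and the HBG2 base. The first is C227T in codon 76, at 5249456 in HBG1 and 5254380 in HBG2. The second is C410G in codon 137, at 5248393 in HBG1 and 5253311 in HBG2. The 41 bases around each difference are given 5′ to 3′ on the coding strand, from GENCODE 29 transcripts, with the differing base in capitals.
HBG1 positions 207 to 247: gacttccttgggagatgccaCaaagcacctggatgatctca
HBG2 positions 207 to 247: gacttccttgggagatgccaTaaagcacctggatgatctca
HBG1 positions 390 to 430: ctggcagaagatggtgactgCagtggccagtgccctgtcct
HBG2 positions 390 to 430: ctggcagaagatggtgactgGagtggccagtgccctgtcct

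Of the 50-base stretches of the HBG1 main transcript, 50.1% occur unchanged in that of HBG2, and of those of HBG2, 64.8% occur in HBG1. With 150 bases these shares are 26.2% and 35.5%. Read length and the treatment of reads that match several places are not given in the sources used here. The division of counts between HBG1 and HBG2 is therefore uncertain, and their sum is given as well. HBG2 exons also overlap those of AC104389.4 by 298 bases, but that row held 0 to 10 counts in every library. They overlap exons of HBE1 and of OR51B5 by 37 bases each, and those rows held at least 47281 and 2429 counts in every library. They overlap AC104389.5 by 433 bases and HBG1 exons overlap it by 218, and that gene was not analysed here. BGLT3 differs in this respect. None of the 944 stretches of 50 bases of its transcript occurs in a transcript of another gene, so its counts are a reading of the locus that does not depend on the split between the gamma-globin copies. Its first 80 bases (5245467 to 5245546, minus strand) are shown as the start of that separate transcript, in lower case throughout since no base is singled out.
BGLT3 first 80 bases: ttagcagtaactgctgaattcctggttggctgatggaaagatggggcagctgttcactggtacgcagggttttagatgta

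The libraries held 19797409 to 31619671 counts, of which the 10 most abundant genes took 7.18% to 9.91% and the globin genes 3.22% to 5.66%. All 10 K562 markers examined were at 30.8 CPM (counts scaled to library depth) or more in every library, and 9 of 12 markers of other cell types stayed under 5 CPM. The other three were LYZ at up to 29 CPM, EPCAM at up to 50 CPM and CD3D at up to 6.04 CPM. Both HBG1 sgRNA libraries of replicate 1 stood apart: the chi-square statistic per gene against replicates 2 and 3 was 16.5 to 18.6, against 4.74 to 7.91 between other replicates. They also had the highest HBE1, at 12319.6 CPM with DMSO and 14592.0 CPM with rapamycin, where the other HBG1 sgRNA libraries had 6596.7 to 7870.8 CPM. Most of the tests, ratios and list counts below are therefore also given without that pair, an alternative chosen after seeing the data.

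HBG1, which encodes the A-gamma chain, was the gene whose promoter was targeted. In HBG1 sgRNA cells with DMSO its level was 137.4, 312.7 and 436.5 CPM in replicates 1, 2 and 3. With rapamycin the same replicate numbers gave 1532.8, 1808.3 and 2447.7 CPM. The non-targeting library with DMSO had 8233.0 CPM, and those with rapamycin had 8851.3 and 8943.6 CPM. The libraries form 3 separate levels, with DMSO-treated HBG1 sgRNA cells lowest, rapamycin-treated ones between, and non-targeting cells highest under either treatment. The lowest rapamycin library of the HBG1 sgRNA was 3.51 times the highest DMSO library. The non-targeting DMSO library was in turn 3.36 times the highest HBG1 sgRNA library. The gap between the non-targeting groups was only 1.08 times, with 1 library against 2. How many of all tested genes separate their groups in this way, here and for the genes below, was not counted.

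HBG2, which encodes the nearly identical G-gamma chain, followed the same order. With the HBG1 sgRNA and DMSO it had 257.8, 451.8 and 580.5 CPM, and with rapamycin 2285.7, 2488.6 and 3404.7 CPM. Non-targeting cells had 11231.9 CPM with DMSO, and 11879.6 and 12064.3 CPM with rapamycin. The lowest rapamycin library of the HBG1 sgRNA was 3.94 times the highest DMSO library. The non-targeting DMSO library was 3.3 times the highest HBG1 sgRNA library. Replicate 1 was the lowest HBG1 sgRNA library under both treatments, as for HBG1.

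BGLT3, a long non-coding RNA linked to gamma-globin transcription in erythroid cells, was far scarcer but had the same order. DMSO-treated HBG1 sgRNA cells gave 0.745, 1.92 and 2.31 CPM, from 23, 55 and 47 counts. Rapamycin-treated ones gave 8.1, 10.7 and 10.4 CPM, from 157, 225 and 319 counts. The non-targeting DMSO library had 30.7 CPM and the rapamycin libraries 37.8 and 32 CPM. The lowest rapamycin library of the HBG1 sgRNA, with an exact Poisson 95% interval of 6.88 to 9.47 CPM, lay above the interval of the highest DMSO library, 1.7 to 3.07 CPM. These intervals cover counting error only.

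**Figure D1:**
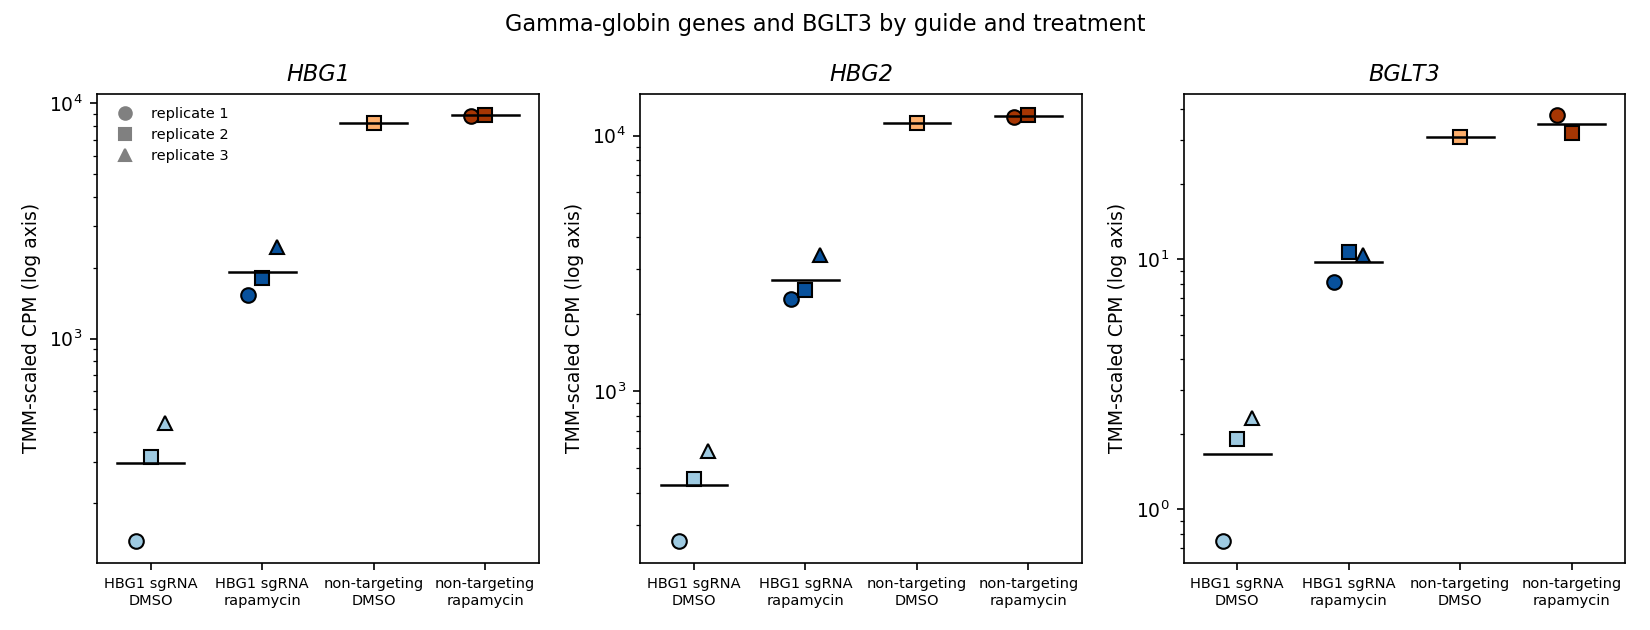
Levels of HBG1, HBG2 and BGLT3 in each of the 9 libraries, in TMM-scaled CPM on a log axis. Points are libraries, marker shape gives the replicate number and bars are group means: for each gene the HBG1 sgRNA libraries with rapamycin lie above those with DMSO and below all 3 non-targeting libraries.

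Group means put a size on the 3 levels. HBG1 averaged 295.5 ± 150.2 CPM (SD, n = 3) with the HBG1 sgRNA and DMSO, 1929.6 ± 469.4 (n = 3) with rapamycin, and 8897.5 ± 65.3 (n = 2) in non-targeting cells with rapamycin. For HBG2 the means were 430.0 ± 162.4, 2726.3 ± 596.2 and 11971.9 ± 130.6 CPM. For BGLT3 they were 1.66 ± 0.815, 9.72 ± 1.41 and 34.9 ± 4.1 CPM. The relative spread of the gamma-globin genes was widest where they were lowest: the SD of HBG1 was 50.8% of the mean with DMSO, 24.3% with rapamycin and 0.734% in the non-targeting pair. In bulk RNA, fewer cells expressing a gene and less of its RNA per cell cannot be told apart.

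Levels of different genes can be set against each other only per length. Per kilobase of main transcript, HBG1 stood at 379.4 CPM with the HBG1 sgRNA and DMSO, 2477.0 with rapamycin and 11421.7 in non-targeting cells with rapamycin. HBG2 stood at 700.4, 4440.2 and 19498.3 CPM per kilobase, and exceeded HBG1 in 9 of 9 libraries by 1.69 to 2.38 times. Taken over all annotated exons the excess was 2.54 to 3.58 times, so its size depends on the length used. It may also depend on how reads matching both copies were counted, which is not given and could act alike in all 9 libraries. BGLT3 stood at 1.67, 9.79 and 35.1 CPM per kilobase, and HBG1 exceeded it 207.6 to 356.6 times, or 97.5 to 167.5 times over all annotated exons.

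In HBG1 sgRNA cells, all 3 genes rose with rapamycin, by 6.08 to 6.54-fold. HBG1 rose 6.54-fold, by 2.71 on the log2 scale (SE 0.28, adjusted p = 7.23e-05). Tests are edgeR quasi-likelihood fits, and p-values are adjusted over the 23675 genes by Benjamini-Hochberg. HBG2 rose 6.34-fold (log2 2.67, SE 0.21, adjusted p = 2.21e-05) and BGLT3 6.08-fold (log2 2.60, SE 0.26, adjusted p = 5.62e-05). In this comparison 6.80% of tested genes were called and 2.75% were called higher. The median absolute change of called genes was 0.44 on the log2 scale, and HBG1, HBG2 and BGLT3 were the 6th, 7th and 8th largest of 650 higher calls. HBG2 had the smallest p of all tested genes. All alternatives kept the call for each gene, and without both replicate 1 libraries the log2 changes were 2.51, 2.51 and 2.33.

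The rise was seen in 3 of 3 replicate pairs for each gene, but its fold was not the same in each. How many of all tested genes rose in 3 of 3 pairs was not counted. For HBG1 the ratio of rapamycin to DMSO was 11.2 in replicate 1, 5.78 in replicate 2 and 5.61 in replicate 3. For HBG2 it was 8.87, 5.51 and 5.87, and for BGLT3 10.9, 5.57 and 4.48. Replicate 1, which started lowest, had the largest fold for each gene. Its gain in HBG1 in absolute terms was the smallest, at 1395.3 CPM against 1495.6 and 2011.2 CPM. HBG2 gained 2027.9, 2036.7 and 2824.2 CPM, and BGLT3 gained 7.36, 8.77 and 8.05 CPM.

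Between guides under rapamycin, the 3 genes were lower with the HBG1 sgRNA. HBG1 was 4.61-fold lower (log2 -2.20, SE 0.29, adjusted p = 0.00499), HBG2 4.39-fold (log2 -2.13, SE 0.22, adjusted p = 0.000318) and BGLT3 3.58-fold (log2 -1.84, SE 0.22, adjusted p = 0.00225). Of all tested genes 0.0296% were called here, 7 in number, and 0.0127% were called lower, which are HBG1, HBG2 and BGLT3 themselves. The 4 higher calls (0.0169%) were HBB, HBD, HBE1 and HBBP1, so each gene called belongs to the beta-globin locus. Without both replicate 1 libraries of the HBG1 sgRNA 37 genes were called. The call for HBG2 was kept under every alternative. That for HBG1 was lost without rapamycin-treated HBG1 sgRNA replicate 2 (log2 -2.16, adjusted p = 0.0597) or non-targeting replicate 1 (log2 -2.21, adjusted p = 0.151) or 2 (log2 -2.20, adjusted p = 0.0911). That for BGLT3 was lost without non-targeting rapamycin replicate 1 (log2 -1.71, adjusted p = 0.185). Without the replicate 1 pair the log2 differences of HBG1, HBG2 and BGLT3 were -2.06, -2.02 and -1.73, and all 3 were called.

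With DMSO the distance between guides was wider. HBG1 was 27.9-fold lower with the HBG1 sgRNA than in the single non-targeting library (log2 -4.80, SE 0.34, adjusted p = 9.46e-07). HBG2 was 26.1-fold lower (log2 -4.71, SE 0.26, adjusted p = 4.7e-08) and BGLT3 19.1-fold lower (log2 -4.26, SE 0.29, adjusted p = 7.06e-07). The background was 0.0253% called and 0.0127% called lower, again HBG1, HBG2 and BGLT3 alone. The non-targeting DMSO group is 1 library, assumed in this fit to vary like the other groups. Without both replicate 1 libraries the log2 differences were -4.46, -4.44 and -3.87. This comparison and the rapamycin comparison share the DMSO-treated HBG1 sgRNA libraries.

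In non-targeting cells the levels with rapamycin and DMSO lay close together. The log2 change was 0.11 (SE 0.39, adjusted p = 0.94) for HBG1, 0.09 (SE 0.30, adjusted p = 0.935) for HBG2 and 0.19 (SE 0.29, adjusted p = 0.845) for BGLT3. None of the 3 was called, where 0.891% of tested genes were and 0.325% were called higher, and none had an unadjusted p under 0.05. DESeq2 and limma voom did not call them either. With 2 libraries against 1, changes of the size of these standard errors could not be detected.

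**Figure D2:**
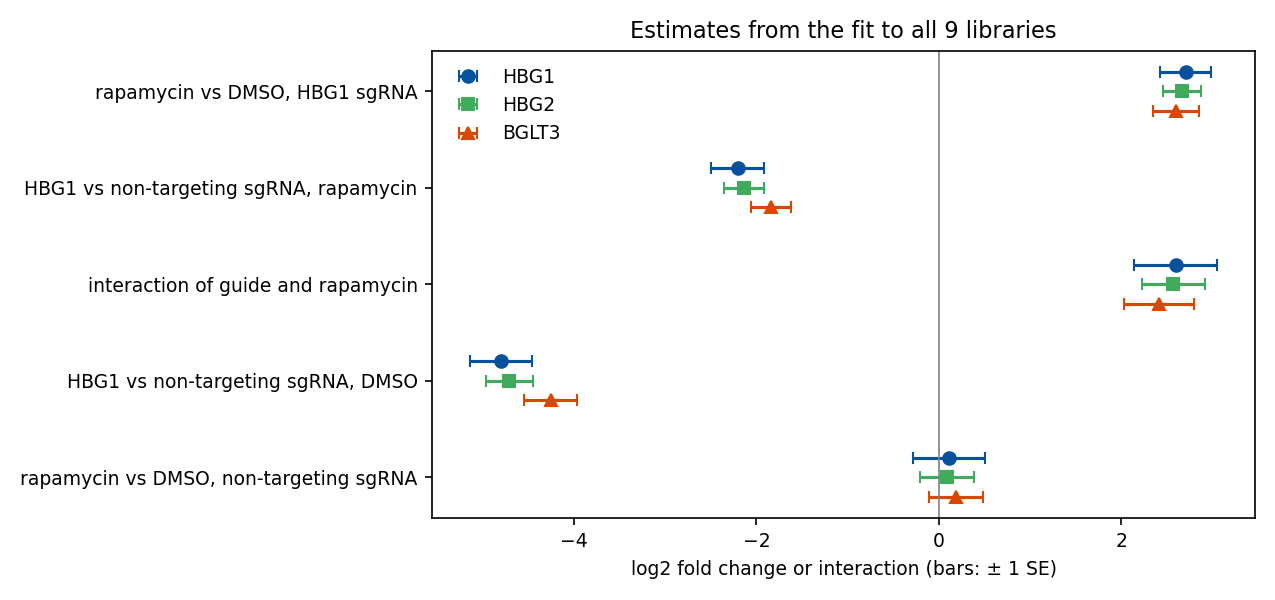
Log2 fold changes of HBG1, HBG2 and BGLT3 in 5 comparisons, with bars of 1 SE from the edgeR fit on all 9 libraries. The 3 genes move together in each comparison, from about -4.80 for HBG1 between guides with DMSO to 2.71 with rapamycin in HBG1 sgRNA cells, and lie near 0 for rapamycin in non-targeting cells.

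Whether the rapamycin change itself differed between guides was tested as an interaction, the change with the HBG1 sgRNA minus that with the non-targeting sgRNA. It was 2.57 on the log2 scale for HBG2 (SE 0.35, adjusted p = 0.035), the only call among 23675 genes (0.00422%). For HBG1 it was 2.60 (SE 0.46, adjusted p = 0.276) and for BGLT3 2.42 (SE 0.38, adjusted p = 0.125), which did not pass. By unadjusted p the members had ranks 1, 2 and 3 of all genes, in the order HBG2, BGLT3 and HBG1. The pairs described above are of libraries that enter this test, so their rise in 3 of 3 is not separate support for it. With a replicate block within each guide HBG1 reached 2.71 (adjusted p = 1.67e-11) and BGLT3 2.55 (adjusted p = 3.39e-06), both called. With that block 0.0211% of genes were called, and 0.0127% higher. In that fit the non-targeting change is that of a single pair, replicate 2, non-targeting rapamycin replicate 1 adds nothing to it, and the spread comes from the HBG1 sgRNA pairs alone. Without both replicate 1 libraries all 3 passed, at 2.40 for HBG1 (adjusted p = 3.03e-10), 2.42 for HBG2 (adjusted p = 4.92e-11) and 2.14 for BGLT3 (adjusted p = 3.13e-05).

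The HBG2 interaction rests on few libraries. It did not pass without DMSO-treated HBG1 sgRNA replicate 2 (log2 2.61, adjusted p = 0.123), or without rapamycin-treated HBG1 sgRNA replicate 2 (log2 2.64, adjusted p = 0.096) or 3 (log2 2.38, adjusted p = 0.16). The same was true without non-targeting rapamycin replicate 1 (log2 2.56, adjusted p = 0.907) or 2 (log2 2.59, adjusted p = 0.275). The HBG1 and BGLT3 interactions passed without HBG1 sgRNA replicate 1 of either treatment or DMSO-treated replicate 3, with log2 values of 2.25 to 3.00 and 2.03 to 2.7 over all single libraries left out. The estimate for each gene thus stayed above 2 while its adjusted p moved across the threshold.

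**Figure D3:**
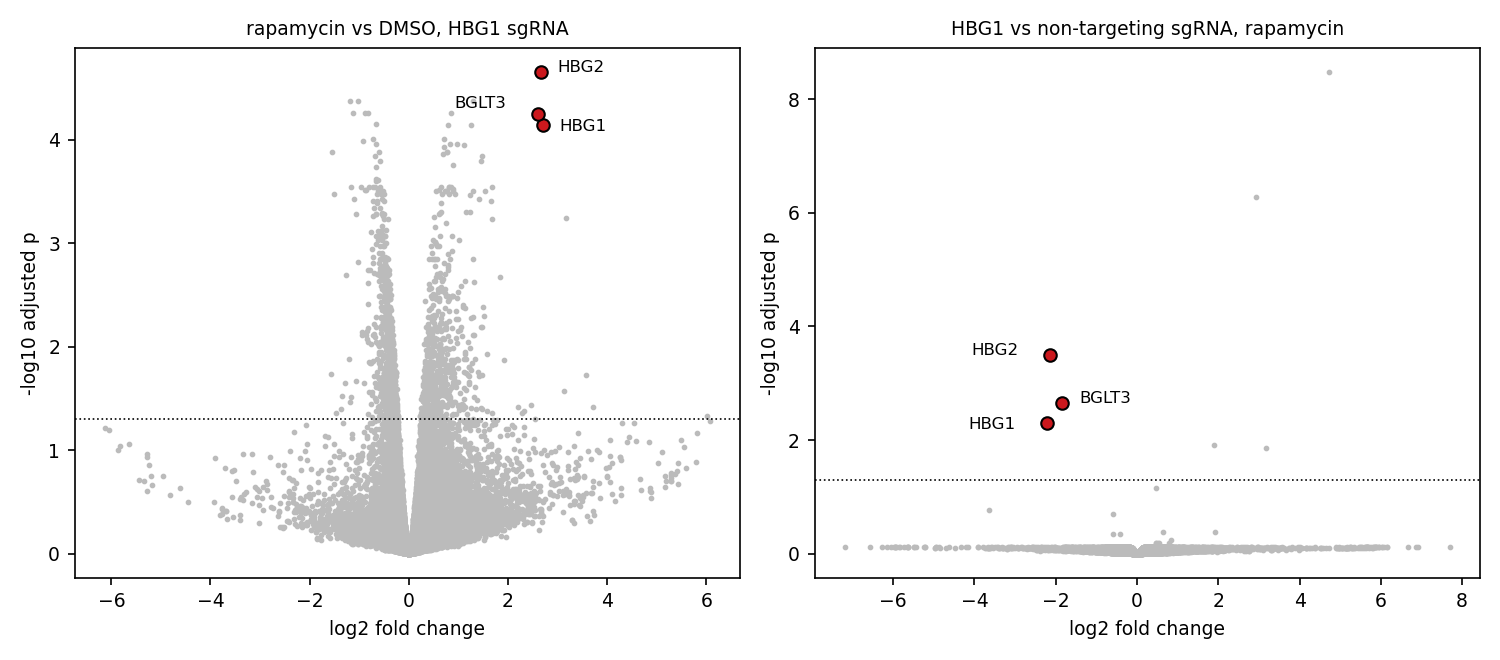
Log2 fold change against -log10 adjusted p for all tested genes in 2 comparisons, with HBG1, HBG2 and BGLT3 in red and a dotted line at an adjusted p of 0.05. With rapamycin in HBG1 sgRNA cells the members stand among 650 higher calls; between guides under rapamycin they are the only lower calls.

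The split of gamma-globin counts between HBG1 and HBG2 varied over a narrow range. HBG1 counts were 34.8%, 40.9% and 42.9% of their sum in the DMSO-treated HBG1 sgRNA libraries, and 40.1%, 42.1% and 41.8% with rapamycin. They were 42.3% in the non-targeting DMSO library, and 42.7% and 42.6% with rapamycin. The lowest share was that of DMSO-treated replicate 1, whose Wilson 95% interval was 33.9% to 35.6%. Group means of 39.5 ± 4.24% and 41.3 ± 1.05% (SD, n = 3 each) differed by 1.82 percentage points (two-sided exact permutation test, p = 0.7, adjusted p = 0.7 over 6 such tests). Without that DMSO library the difference turned to -0.559, without DMSO replicate 3 it was 3.51, and without the replicate 1 pair it was 0.045. Between guides under rapamycin the difference was -1.28 points (exact p = 0.2, adjusted p = 0.4), and -0.681 without rapamycin-treated HBG1 sgRNA replicate 1. The first difference was smaller than the SD of the DMSO libraries, and the shared sequence of the copies limits what the split can show. The smallest p that any of the 6 permutation tests allows is 0.1, so none could pass 0.05.

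BGLT3 was also counted against the gamma-globin sum. Per 1000 counts of HBG1 and HBG2 there were 1.89, 2.51 and 2.27 of BGLT3 with the HBG1 sgRNA and DMSO, and 2.12, 2.49 and 1.77 with rapamycin. Non-targeting libraries had 1.58 with DMSO, and 1.82 and 1.52 with rapamycin. The HBG1 sgRNA groups overlapped, and their means of 2.22 ± 0.316 and 2.13 ± 0.359 (SD, n = 3 each) differed by less than the spread (difference -0.0966, exact permutation p = 0.7, adjusted p = 0.7). That difference turned positive, to 0.0815, without rapamycin replicate 3, and to 0.0472 without DMSO replicate 2, and was -0.263 without the replicate 1 pair. Under rapamycin the HBG1 sgRNA mean was 0.455 above the non-targeting mean of 1.67 ± 0.212 (n = 2, exact permutation p = 0.3, adjusted p = 0.45), and these groups overlapped as well. That difference was 0.274 without rapamycin-treated HBG1 sgRNA replicate 2 and 0.457 without the replicate 1 pair. While the gamma-globin sum ran from 725.6 ± 312.7 to 20869.4 ± 195.9 CPM over the groups, this ratio stayed between 1.52 and 2.51 in all 9 libraries.

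**Figure D4:**
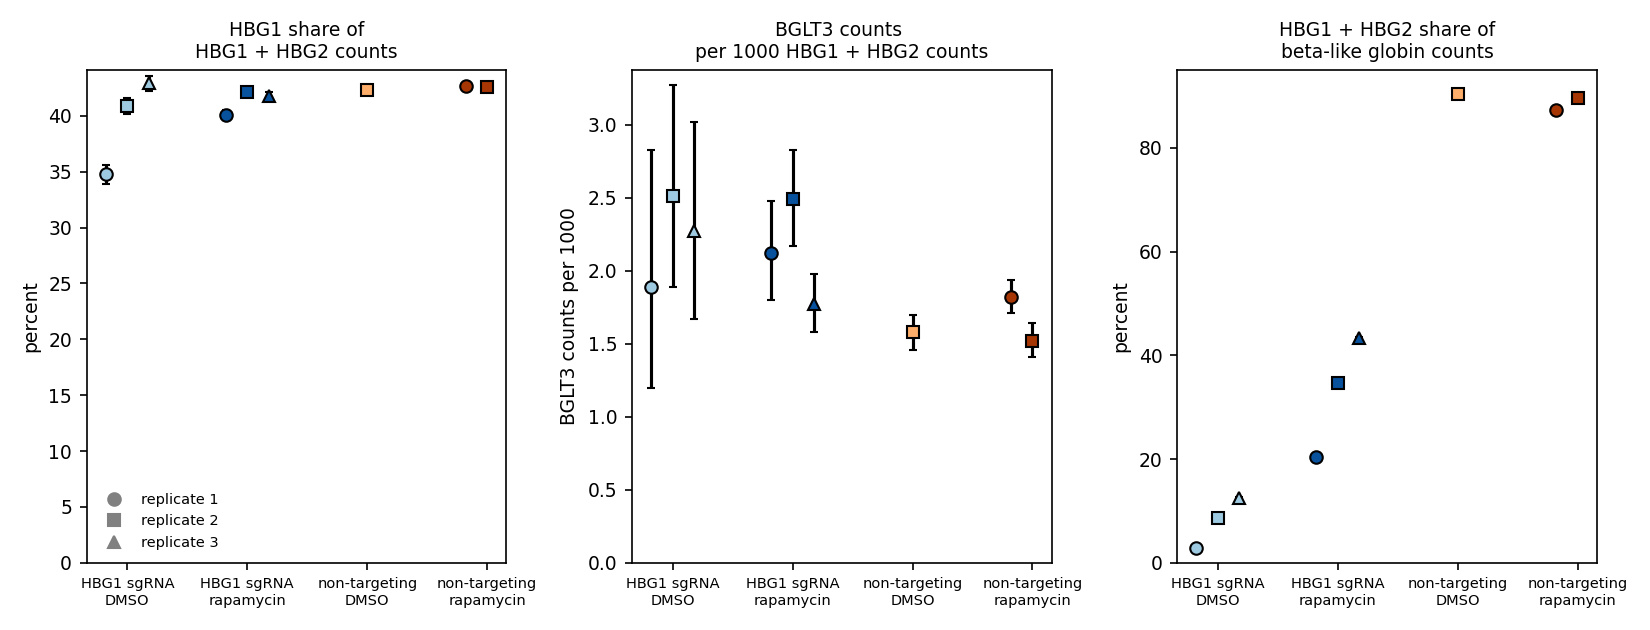
Within-library ratios in 3 panels: HBG1 as a percent of HBG1 plus HBG2 counts, BGLT3 per 1000 gamma-globin counts, and gamma-globin as a percent of beta-like globin counts. Points are libraries with 95% intervals of counting error (Wilson for percents, exact Poisson for BGLT3): the first panel runs from 34.8% to 42.9%, while the third runs from 2.93% to 90.5%.

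The gamma-globin share of all beta-like globin counts (HBB, HBD, HBG1, HBG2 and HBE1) changed widely. It was 2.93%, 8.68% and 12.4% in DMSO-treated HBG1 sgRNA cells and 20.4%, 34.7% and 43.4% with rapamycin. It was 90.5% in the non-targeting DMSO library, and 87.4% and 89.7% with rapamycin. The groups with the HBG1 sgRNA did not overlap, with means of 8.01 ± 4.78% and 32.8 ± 11.6% (n = 3 each, exact permutation p = 0.1, the smallest this design allows, adjusted p = 0.3). Under rapamycin the means differed by -55.7 points between guides (exact permutation p = 0.1, again the smallest possible, adjusted p = 0.3). Without the replicate 1 pair the differences were 28.5 points with rapamycin and -49.5 points between guides. Replicate 1 had the lowest share under both treatments and also the highest HBE1, whose part in that low share was not tested.

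The rest of the share was mostly HBE1, the embryonic gene. Per kilobase of main transcript HBE1 exceeded HBG1 12.8 to 76.1 times in DMSO-treated HBG1 sgRNA cells and 2.56 to 8.08 times with rapamycin, but was only 0.209 to 0.286 times HBG1 in non-targeting cells. Over all annotated exons these ratios were 26.1 to 154.7, 5.2 to 16.4 and 0.426 to 0.581. The 5 genes together came to 10156.9 ± 2892.4 CPM in HBG1 sgRNA cells with DMSO, 14875.3 ± 3396.4 with rapamycin and 23570.4 ± 212.4 in non-targeting cells with rapamycin. With HBE1 left out, gamma-globin made up 52.8 ± 16.3%, 94.2 ± 1.98% and 99.9% of the remaining counts. These shares, and those of all 5 genes, are of counts not scaled by length. In HBG1 sgRNA cells with DMSO, HBD averaged 1220.1 CPM per kilobase of main transcript, where HBG1 had 379.4 and HBG2 700.4. Over all annotated exons HBD had 466.9, HBG1 178.1 and HBG2 494.9, so which made up the larger part there depends on the length used.

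The other 4 genes of the locus list moved against the members or did not pass. Under rapamycin in HBG1 sgRNA cells 3 of the 4 fell, where 4.05% of tested genes were called lower: HBB by 1.16 on the log2 scale (adjusted p = 0.0308), HBD by 1.16 (adjusted p = 0.000285) and HBBP1 by 1.06 (adjusted p = 0.000518). HBE1 had a log2 change of 0.17 (adjusted p = 0.723), and with a replicate block it was 0.16 and called (adjusted p = 0.0423). Between guides under rapamycin all 4 were higher with the HBG1 sgRNA, HBD most, by 4.72 on the log2 scale (adjusted p = 3.32e-09). The median log2 change of the 4 was -1.11 with rapamycin in HBG1 sgRNA cells and 3.06 between guides, beside 0.02 and 0.01 over all tested genes. Without the replicate 1 pair the same 3 genes fell with rapamycin, and all 4 were higher between guides, with medians of -1.15 and 2.7.

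**Figure D5:**
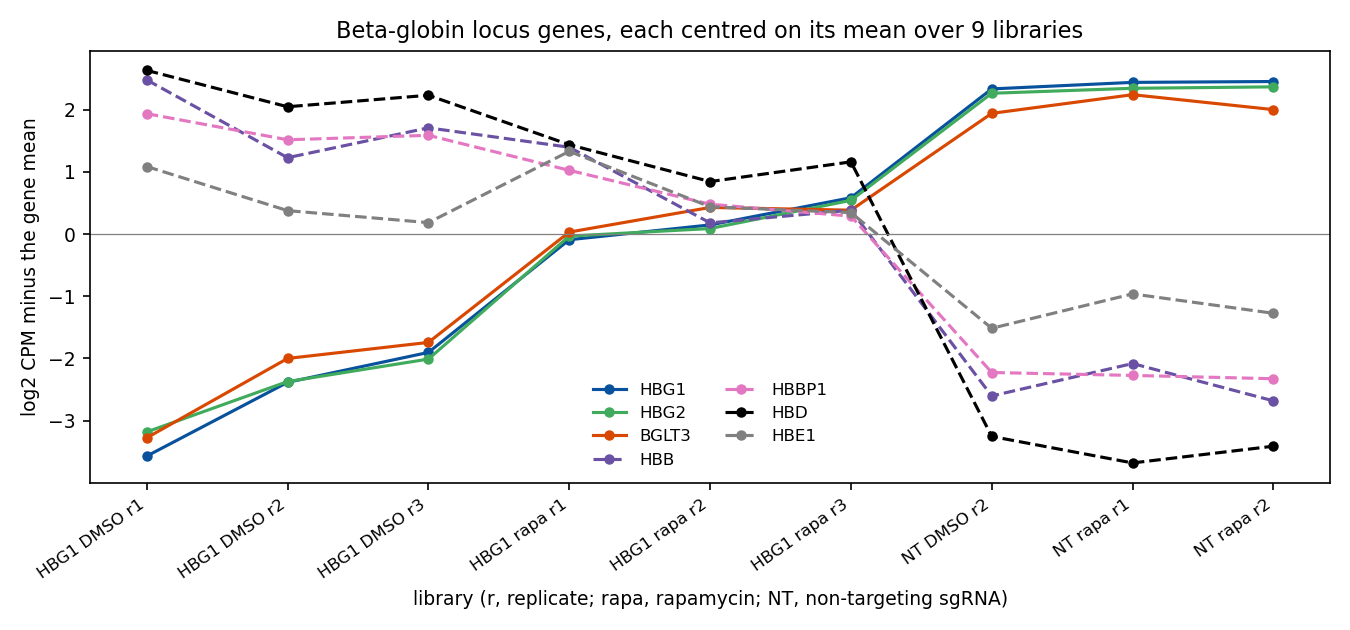
Log2 CPM of 7 beta-locus genes in the 9 libraries, each gene centred on its own mean. Lines only join the points of a gene: HBG1, HBG2 and BGLT3 (solid) run together, and HBB, HBBP1, HBD and HBE1 (dashed) lie above their means in HBG1 sgRNA libraries and below them in non-targeting ones. The solid genes are lowest in HBG1 sgRNA libraries with DMSO, lie near their means with rapamycin (HBG1 -0.09 to 0.58) and are highest in non-targeting ones.

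Likeness of profile was measured over the 9 libraries as the root mean square difference between centred log2 CPM values, among 15177 genes. The genes most like HBG1 were HBG2 (0.15) and BGLT3 (0.30), followed at a distance by AL831711.1 (1.30), AC007569.1 (1.56) and DYSF (1.58). HBG1 itself varied by 2.10 on this scale. For BGLT3 the nearest were HBG2 (0.26), HBG1 (0.30) then AL831711.1 (1.09), AC007569.1 (1.31) and DYSF (1.34). HBG2 was nearest to HBG1 (0.15) and BGLT3 (0.26), with the same next genes from 1.23 upwards. Against the mirror image of HBG1 the nearest were HBB (0.79), HBBP1 (0.79), HBD (1.07), HBE1 (1.5) and LINC00839 (1.66). These are descriptions, since the 9 libraries fall into a few groups that differ strongly in these genes. Reads that match both HBG1 and HBG2 may also add to the likeness of that pair.

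The spread between replicates of the members was larger than for most genes. The pooled SD of log2 CPM within groups was 0.584 for HBG1, 0.425 for HBG2 and 0.543 for BGLT3, where the median gene had 0.234. In all, 77.8%, 68.1% and 75.5% of tested genes had a smaller SD. The members' changes were larger still, 2.60 to 2.71 on the log2 scale with rapamycin in HBG1 sgRNA cells.

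The genes of the alpha-globin locus changed little. Of 5 tested in HBG1 sgRNA cells, 1 rose with rapamycin, where 2.75% of all genes were called higher. It was HBQ1, theta-globin, up by 0.67 on the log2 scale (adjusted p = 0.0111), and the list's median was 0.28. Without the replicate 1 pair 3 rose, HBA1, HBA2 and HBQ1, beside 3.92% of all genes. With a replicate block all 5 rose, beside 17.1% of genes called and 7.43% called higher, with the same median. In non-targeting cells, with 2 libraries against 1, their median log2 change with rapamycin was 0.39. There HBA1 and HBA2 had 0.44, HBZ 0.39, and HBM and HBQ1 0.37. Between guides under rapamycin their median was 0.19, and they are not among the 7 genes called.

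Among listed regulators of gamma-globin, called changes in HBG1 sgRNA cells were at most 0.42 on the log2 scale in the fit on all 9 libraries. BCL11A, the main adult-stage repressor, had 0 counts in all 9 libraries, where a floor of 3 counts corresponds to 0.0972 to 0.155 CPM. Of 26 listed repressors and corepressors, 25 were tested and 1 fell with rapamycin in HBG1 sgRNA cells: PRMT5, an arginine methyltransferase, by 0.34 on the log2 scale (adjusted p = 0.0149). ZBTB7A had -0.17 (adjusted p = 0.412) and KLF1, an erythroid activator that also drives BCL11A, 0.05 (adjusted p = 0.822). The 1 call of 25 compares with a background in which 4.05% of all genes were called lower, and the list's median was -0.09, against 0.02 for all genes. Without the replicate 1 pair 4 fell, NFIA, GATAD2A, MTA2 and PRMT5, beside 5.17% of all genes. With a replicate block 4 fell and 2 rose, beside 9.62% of all genes called lower and 7.43% higher. Added to PRMT5 were CHD4 (-0.19), GATAD2A (-0.25) and MTA2 (-0.22), subunits of the NuRD corepressor. The other listed subunits of that complex were not called, and their changes went both ways. Called higher were NR2C2 (0.18) and EIF2AK1 (0.22), the haem-regulated eIF2alpha kinase.

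Of 14 listed activators and looping factors, 3 rose, where 2.75% of all genes were called higher. They were FOXO3 by 0.42 on the log2 scale (adjusted p = 0.00901), NFE2, a subunit of the erythroid enhancer-binding factor, by 0.39 (adjusted p = 0.0144) and GATA1, the erythroid master regulator, by 0.31 (adjusted p = 0.0326). The list's median of 0.02 equalled that of all genes. Without the replicate 1 pair the same 3 rose. With a replicate block 4 rose, LMO2 (0.26) being added, beside 7.43% of all genes, and 2 fell beside 9.62%, LIN28B (-0.29) and IGF2BP1 (-0.24), which bind RNA and are known to favour fetal globin. FOXO3 also rose with rapamycin in non-targeting cells, by 0.80 on the log2 scale. The other regulators called in HBG1 sgRNA cells in the fit on all 9 libraries moved the same way there: PRMT5 -0.34, NFE2 0.35 and GATA1 0.16. Non-targeting cells gave 2 libraries against 1, so the lack of a call there does not tie these changes to the HBG1 sgRNA. The 7 genes called between guides under rapamycin, all of the beta-globin locus, include no listed regulator.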

How the data were processed

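Per the labels, poly-T selected RNA went into NEBNext Ultra libraries, 9 in all. The authors deposited whole-number read counts per Ensembl gene, 1 column per library. The submitters' processing notes name STAR 2.7.3a, featureCounts, Subread 2.0.0, R 4.1.2, limma 3.34.9, edgeR 3.24.0 and the build GRCh38. Annotation, strand setting and multi-mapping treatment are not given in the sources used here. Symbols and positions come from GENCODE 29, which held 99.47% of identifiers.

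Counts were tested with edgeR 4.0.16 in R 4.3.3 (filterByExpr minimum count 10, TMM factors 0.977 to 1.02, 1 quasi-likelihood fit over all 9 libraries). Calls needed an adjusted p below 0.05. Levels are TMM-scaled CPM. Ratios were compared by two-sided exact permutation tests. The code was tested on simulated data. DESeq2 1.42.0, limma 3.58.1 voom, other scaling and filters, the replicate block and libraries left out were alternatives.

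Replicate numbers were checked for pairing over 11498 genes: between HBG1 sgRNA libraries of the same number, deviations from group means had correlations of 0.553, 0.278 and 0.231, all over the limit of 0.1, by which the numbers pair these libraries. Replicates 2 and 3 also correlated when crossed (0.194 and 0.258), so only replicate 1 is set apart by its number. Across guides under rapamycin, libraries of the same number had correlations of -0.068 and -0.069, under the limit. The non-targeting rapamycin group has 2 libraries, whose deviations from their mean are mirror images, so this check is weak and cannot show that pairing is absent. A block shared by both guides rests on a pairing not seen. The members, the gene lists and the naming rule were chosen with earlier results of these data known. The rule names the members, other globin-locus genes where a result turns on them, the 5 genes most like each member or its mirror image, BCL11A, ZBTB7A, KLF1, GATA1 and listed regulators that passed. Regulators and alpha-globin genes called only with the replicate block or without the replicate 1 pair were named after their values were seen.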

Additional observations from a re-analysis of the deposited data

Results flagged for a closer look

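The rapamycin change of HBG2 differed between guides by the test of the interaction, at 2.57 on the log2 scale (SE 0.35, adjusted p = 0.035, edgeR quasi-likelihood). The 3 HBG1 sgRNA pairs each rose, while the single non-targeting pair changed by 0.10 on the log2 scale. These pairs are of libraries that enter the test and are not separate support for it.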

How the results depend on the processing

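The rise of HBG1, HBG2 and BGLT3 with rapamycin in HBG1 sgRNA cells was called under all 20, 20 and 19 alternatives run, with ranges of 2.37 to 3.10, 2.40 to 2.94 and 2.22 to 2.88 on the log2 scale. The differences between guides with DMSO kept their calls in all 17, 17 and 16, and the non-targeting rapamycin change stayed uncalled in all 18, 18 and 17. With single libraries left out, the guide difference under rapamycin ran from -2.41 to -2.06 for HBG1 and from -1.95 to -1.71 for BGLT3, each losing its call in the cases given above. The HBG2 interaction was not called with total counts in place of TMM (2.58, adjusted p = 0.0662), with DESeq2 (2.58, adjusted p = 0.291) or with HBG1 and HBG2 summed to 1 gene (2.58, adjusted p = 0.124), and ran from 2.31 to 2.86 with single libraries left out. The HBG1 and BGLT3 interactions were called without the filter (2.60 and 2.42), with limma voom (2.76 and 2.60), with a replicate block shared by both guides (2.45 and 2.28), with a replicate block within each guide (2.71 and 2.55) and without both replicate 1 libraries of the HBG1 sgRNA (2.40 and 2.14), and ran from 2.25 to 3.00 and from 2.03 to 2.7 with single libraries left out. Without the filter the SE of the interaction was 0.12 for HBG1 and 0.27 for BGLT3, against 0.46 and 0.38 in the main fit. The calls without the filter thus rest on a smaller estimated spread, not on a larger change. The replicate block changed no other call of the members. The cause was not tested.

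Counts of genes called moved more. With rapamycin in HBG1 sgRNA cells 1609 became 3441 with a replicate block on those libraries alone and 3547 with the block within each guide, and 664 to 1731 with single libraries left out. Between guides under rapamycin 7 became 91 without the filter, 13 with DESeq2, 21 with the shared block, 37 without both replicate 1 libraries and 3 to 8 with single libraries left out. For the interaction 1 became 0 with total counts, 8 without the filter, 0 with DESeq2, 3 with voom, 3 with the shared block, 5 with the block within each guide, 4 without both replicate 1 libraries and 0 to 4 with single libraries left out. Between guides with DMSO 6 became 23 without the filter and 13 with the shared block. In non-targeting cells 211 became 668 without the filter, 660 with DESeq2, 376 with the shared block, 774 with the block within each guide, 1367 without both replicate 1 libraries and 0 to 514 with single libraries left out.

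The HBG1 share difference ran from -0.559 to 3.51 points, and the BGLT3 ratio difference from -0.277 to 0.0815 per 1000 (0.0472 without DMSO replicate 2), with single libraries left out. Between guides under rapamycin these ran from -1.65 to -0.681 points and from 0.274 to 0.633. Without the non-targeting DMSO library 3 of the 5 comparisons could not be fitted. At 23 counts, BGLT3 in DMSO-treated replicate 1 is known only to 0.472 to 1.12 CPM.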
